A study of Mus musculus with 2 samples.

Results

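Genes of the endoplasmic reticulum (ER) stress response were read from the liver arrays of apolipoprotein E-deficient mice fed a Western diet with or without oleanolic acid, a plant triterpenoid. The members were 10 genes chosen by symbol: the ER chaperones and co-chaperones Hspa5, Hsp90b1, Dnajb9 and Sdf2l1, the degradation factor Herpud1, the transcription factor Xbp1, and the ATF4-CHOP branch genes Atf4, Ddit3, Trib3 and Asns. They were reported by 20 of the 20380 probe sets that carry 1 gene symbol. Of these, 19 were measured, meaning that the higher of the 2 signals reached the median of its array. All 10 genes were among the 7137 measured genes. For the oleanolic acid array, liver RNA was pooled from males whose Western diet held 0.01% oleanolic acid over 11 weeks, which gave them 10 mg/kg/day. For the control array it was pooled from males on the semipurified Western diet alone over 11 weeks. These groups follow the titles and the diet field, since the growth protocol names oleanolic acid for both samples, the control included. Mice of both diets lacked apolipoprotein E, which makes them clear remnant lipoproteins poorly, had a C57BL/6J background and were 2 months old per the labels. How many mice made up a pool, and at what hour livers were taken, is not stated in the labels. As each diet has 1 pooled array, no test of any difference was possible, and every value describes these 2 arrays.

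The ER folds secreted and membrane proteins, and hepatocytes, which secrete most plasma proteins, hold much of it. When unfolded proteins build up, 3 sensors of the ER membrane start the unfolded protein response. ATF6 and the IRE1-XBP1 branch raise transcription of chaperones and of the degradation machinery. PERK phosphorylates the initiation factor eIF2alpha, which slows translation in general while favouring that of ATF4. ATF4 then drives Ddit3, which encodes CHOP, and, with CHOP, Trib3. Other kinases of eIF2alpha answer amino acid shortage and other stresses, so that ATF4 targets can move without the chaperones. Western-type diets and steatosis are widely studied triggers of this response in liver.

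The branches are known to be read out through different DNA elements, so the elements were looked for near the start of each member. RefSeq promoters (build GRCm38.p6, 250 bases before to 50 after the annotated start) were found for 10 of 10 members. Matches on both strands were counted for 4 motifs: the ER stress element ERSE (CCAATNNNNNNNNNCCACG), bound by ATF6 with NF-Y, its shorter form ERSE-II (ATTGGNCCACG), the core of the unfolded protein response element UPRE (TGACGTG), and the C/EBP-ATF response element CARE (TGATGNAA), bound by ATF4 with C/EBP factors. Of 32851 promoters of this length, 0.119% held ERSE, 0.0365% ERSE-II, 2.01% the UPRE core and 3.97% CARE. ERSE matched in Hspa5 and Hsp90b1, ERSE-II in Herpud1, the UPRE core in Hspa5, and CARE in Herpud1, Asns and Trib3. No matches of different motifs overlapped in a member. The windows below are shown because they hold the elements by which the chaperone and the amino acid arms are told apart. Capitals mark the fixed letters of a motif, and each window is written 5′ to 3′ on the strand of the gene.
Hspa5: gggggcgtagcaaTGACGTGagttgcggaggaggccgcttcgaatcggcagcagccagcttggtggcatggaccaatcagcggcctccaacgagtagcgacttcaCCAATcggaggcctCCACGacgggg
Hsp90b1: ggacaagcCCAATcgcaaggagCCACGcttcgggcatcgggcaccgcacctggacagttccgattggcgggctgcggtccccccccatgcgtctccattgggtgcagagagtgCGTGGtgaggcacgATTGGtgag
Herpud1: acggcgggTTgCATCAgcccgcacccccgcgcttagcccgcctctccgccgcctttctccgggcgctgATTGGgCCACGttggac
Asns: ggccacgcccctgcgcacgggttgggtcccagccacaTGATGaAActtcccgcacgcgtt
The Hspa5 window lies at chr2:34771920-34772049 on the plus strand, with the UPRE core starting 157 and the ERSE 65 bases before the start. The Hsp90b1 window lies at chr10:86705529-86705664 on the minus strand and holds ERSE in both orientations, starting 212 and 107 bases before the start. The Herpud1 window, at chr8:94386309-94386393 on the plus strand, holds CARE in reverse orientation 112 bases and ERSE-II 52 bases before the start. The Asns window, at chr6:7693210-7693269 on the minus strand, holds CARE 23 bases before the start. The Trib3 match lay after the annotated start and is not printed. For Dnajb9, Sdf2l1, Xbp1, Atf4 and Ddit3 none of the 4 motifs matched within this window.

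The liver arrays showed small differences in ER stress genes, and they did not run along 1 branch. No member passed the log2 ratio of 1.5 in either direction that the submitters' design text names, a size passed by 28 of the 7137 measured genes (0.392%). None passed 0.5 either, which 5.87% of measured genes did. Past 0.25, a size chosen after seeing the data, 3 members were higher in the oleanolic acid array (Sdf2l1, Ddit3 and Trib3) and 2 were lower (Dnajb9 and Asns). Among all measured genes 10.6% were higher and 12.9% lower past 0.25, 23.4% together. With the brightest probe set of each gene alone, or without probe sets that can share targets, Asns was at -0.21 and Trib3 at 0.24 or without a value, so that 2 members were higher past 0.25 (Sdf2l1 and Ddit3) and 1 was lower (Dnajb9). The median of the 10 members was -0.01, that of all measured genes 0.0012. Above 0 lay 5 members (50.2% of all measured genes), and below 0 the other 5 (49.7%). The error given with a log2 ratio is a probe set SD: how far probe sets of the same gene scatter in log2 ratio, pooled over genes of a similar mean signal. It is 0.25 for the dimmer members (Ddit3, Trib3, Asns), 0.17 for Sdf2l1 and Atf4 and 0.13 for the others, and covers probe and hybridization error within the arrays, not variation between mice.

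**Figure D1:**
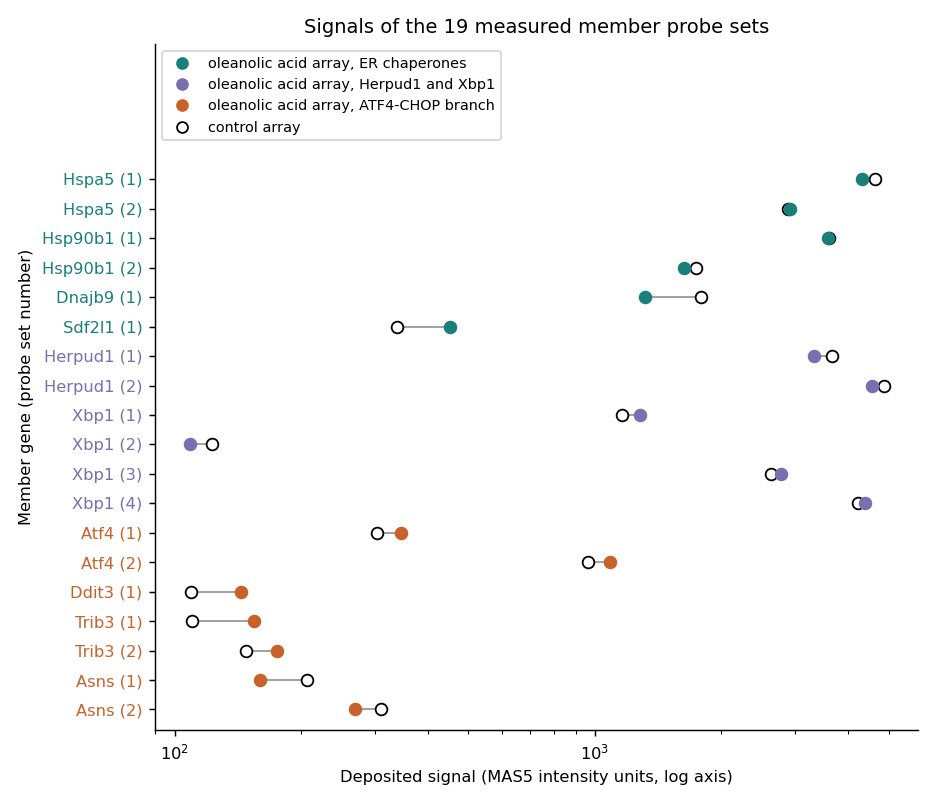
Deposited signal (MAS5 intensity units, log axis) of each of the 19 measured member probe sets, filled circles for the oleanolic acid array, coloured by branch, and open circles for the control array. Signals are comparable along a line, not between lines; circles overlap for Hspa5 and Hsp90b1, while Sdf2l1, Ddit3 and Trib3 lie to the right of control and Dnajb9 and Asns to the left.

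Among the chaperones, the 2 most general ones were nearly level between the arrays. Hspa5 encodes BiP, the HSP70 of the ER lumen, which holds the stress sensors inactive while it is bound to them. Its probe sets read 4313 and 2913 in the oleanolic acid array, against 4633 and 2881 in the control array. The first was slightly lower and the second slightly higher in the oleanolic acid array, and the mean log2 ratio was -0.04 (probe set SD 0.13). Hsp90b1 encodes GRP94, the HSP90 of the ER. Its probe sets read 3586 and 1628 in the oleanolic acid array and 3608 and 1741 in the control array, and the mean log2 ratio was -0.05 (probe set SD 0.13). Both of its probe sets were lower in the oleanolic acid array by less than that SD. Of the 1785 measured genes in the brightest of 4 signal bands, which holds both genes, 75.5% had a log2 ratio at least as far from 0 as Hspa5 and 70.1% one at least as far as Hsp90b1.

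The other chaperone members lay apart, in opposite directions. Dnajb9 encodes ERdj4, a J-domain partner of BiP that acts in degradation and in keeping the sensor IRE1 inactive. It read 1315 in the oleanolic acid array and 1788 in the control array, 1.36-fold lower, with a log2 ratio of -0.44 (probe set SD 0.13). Only 4.20% of genes in the brightest signal band had a value as far from 0. Sdf2l1 encodes a luminal protein that works with BiP and its J-domain partners in folding. It read 451 in the oleanolic acid array and 338 in the control array, 1.34-fold higher, with a log2 ratio of 0.42 (probe set SD 0.17), a size reached by 6.11% of genes of similar signal. These were the lowest and the highest log2 ratio of all 10 members, 0.86 apart, and each rests on a single probe set.

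Herpud1 and Xbp1 were close to level. Herpud1 encodes a membrane protein that assembles the ubiquitin ligase complex of ER-associated degradation. Its probe sets read 4555 and 3314 in the oleanolic acid array, against 4865 and 3656 in the control array. Both were lower in the oleanolic acid array, and the log2 ratio of -0.12 was within the probe set SD of 0.13. Xbp1 encodes the factor made active when IRE1 splices its messenger RNA. Of its 4 probe sets, 3 were higher in the oleanolic acid array, with signals of 4384, 2764 and 1277 against 4217, 2624 and 1160 in the control array. The dimmest was lower, with 108.6 against 122.6, and the mean log2 ratio was 0.02 (probe set SD 0.13). Spliced and unspliced Xbp1 were not told apart here, so these values give total Xbp1 and not its activation.

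In the ATF4-CHOP branch, the regulators were higher in the oleanolic acid array and the amino acid synthesis enzyme was lower. Atf4, whose protein level is set largely by translation, read 1089 and 345 in the oleanolic acid array and 960 and 303 in the control array. Its measured probe sets gave almost the same log2 ratio, 0.18 and 0.19, and the mean of 0.18 barely exceeded the probe set SD of 0.17. The remaining Atf4 probe set lay at the floor on both arrays. With no filter on low signals, which counts that probe set, Atf4 was at 0.10. Of genes of similar signal, 29.9% had a value as far from 0 as the reported one. Ddit3, which encodes the stress factor CHOP, read 144.2 in the oleanolic acid array and 109.7 in the control array, 1.31-fold higher (log2 ratio 0.39, probe set SD 0.25). A value as far from 0 occurred in 8.86% of genes of similar signal. Trib3, a pseudokinase induced by ATF4 and CHOP that binds AKT, read 154.6 and 175.0 in the oleanolic acid array, against 110.2 and 148.1 in the control array. Both probe sets were higher, by log2 ratios of 0.49 and 0.24, and the mean was 0.36 (probe set SD 0.25), a size reached by 11.1% of genes of similar signal. Asns, which encodes asparagine synthetase and is a classic target of ATF4 in amino acid shortage, read 268.7 and 159.5 in the oleanolic acid array and 310.5 and 206.7 in the control array. Both probe sets were lower, by -0.21 and -0.37, with a mean of -0.29 (probe set SD 0.25), a size reached by 17.8% of genes of similar signal.

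**Figure D2:**
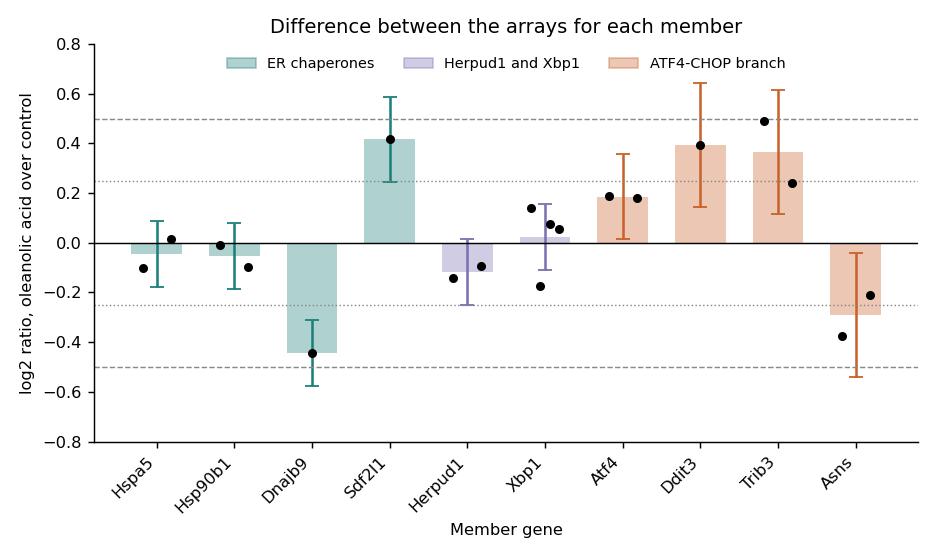
Log2 ratio of oleanolic acid over control for each member (bars, mean over its measured probe sets; black points, single probe sets; error bars, pooled probe set SD of the gene's signal band), with dotted lines at 0.25 and dashed lines at 0.5 on either side of 0. No bar reaches the dashed lines; Sdf2l1, Ddit3 and Trib3 rise above the upper dotted line and Dnajb9 and Asns fall below the lower one.

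Set side by side, the 4 ATF4-CHOP members had a median log2 ratio of 0.27 and the 4 chaperone members one of -0.05, a difference of 0.32. The ranges overlapped: ATF4-CHOP members ran from -0.29 to 0.39 and chaperones from -0.44 to 0.42. The means differed by 0.19, and Asns lay on the other side of 0 from the rest of its branch. Without Asns, a choice made after seeing the data, the difference of medians was 0.41, and without Dnajb9 it was 0.32. With the brightest probe set of each gene alone it was 0.27, and without probe sets ending in _x_at, _s_at or _a_at, which leaves Trib3, Hspa5 and Hsp90b1 with no value, it was 0.19. Genes are not replicates, so this difference has no test and no error of its own. Within each branch the gap between its extreme members, 0.86 for chaperones and 0.69 for ATF4-CHOP members, was larger than the difference between the branches.

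Members were also set side by side by their promoter matches. The 3 members with ERSE or ERSE-II, Hspa5, Hsp90b1 and Herpud1, lay between -0.12 and -0.04, whereas the 7 others ran from -0.44 to 0.42. These ranges are not matched for signal. All 3 members with ERSE or ERSE-II fall in the brightest band (probe set SD 0.13), while the others include the dimmer Ddit3, Trib3 and Asns (probe set SD 0.25). Of 116 other ER stress genes with a promoter in the table, 10 held ERSE or ERSE-II. Their log2 ratios ran from -0.15 to 0.29 with a median of -0.0079. Among these were the lectin chaperone genes Calr (0.16) and Canx (0.01), the co-chaperone gene Dnajc3 (-0.13) and the ubiquitin ligase gene Syvn1 (-0.03). The 3 members with CARE went both ways: Trib3 was higher and Asns and Herpud1 were lower in the oleanolic acid array. Of 13 other measured ER stress genes with CARE, 9 lay above 0 and 4 below, against 50.2% and 49.7% of all measured genes. Their median was 0.11 and the highest value 0.95 for Atf3. Nupr1, among those above 0, read 69.8 in the oleanolic acid array and 55.3 in the control array. The control signal lay below its array's median, so the filter fixed the direction of Nupr1. A match is a description of letters in this window and was not set against any binding data.

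The rest of the protein-folding system was close to level as well, as were most measured genes. Of 30 measured genes for other ER chaperones, disulfide isomerases and prolyl isomerases, 25 lay within 0.25 of 0 (83.3%, against 76.6% of all measured genes), and the median was 0.03. The share past 0.25 was 16.7%. Most of these genes fall in the brightest signal band and the next one, where 12.3% and 17.7% of genes lay past 0.25. None of the 30 was higher and 1 was lower past 0.5, sizes that 2.63% and 3.24% of measured genes passed in those directions. That gene was Fkbp11, a prolyl isomerase of secretory cells, with signals of 176.5 in the oleanolic acid array and 274 in the control array (log2 ratio -0.64, probe set SD 0.25). The targets of the chaperone arms included the ER HSP70-like gene Hyou1 (0.18), the disulfide isomerase genes Pdia4 (0.22) and Pdia6 (-0.07), the BiP partner Dnajb11 (0.05), and the secreted stress proteins Manf (-0.02) and Creld2 (0.07). Each of these 6 values was smaller in size than 0.25, except in other settings for Pdia4, at 0.39 with no filter on low signals, and for Hyou1, at 0.37 with its brightest probe set alone and -0.0077 without probe sets that can share targets. With no filter on low signals no folding gene was lower past 0.5.

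ER-associated degradation gave the same picture. Of 24 measured genes, none passed 0.5, which 5.87% of all measured genes did. Within 0.25 lay 20 (83.3%, against 76.6% of all measured genes). The adaptor Sel1l (-0.04), the ligase Syvn1 and the mannosidase-like Edem1 (-0.13) were near 0. The values farthest from 0 were those of Ube2g2, a ubiquitin-conjugating enzyme of this pathway, at 0.44 (probe set SD 0.25), or 0.24 with no filter on low signals, and Edem3, another mannosidase-like gene, at -0.41 (probe set SD 0.17). Of 33 measured genes for import into the ER, signal peptidase and N-glycosylation, 23 lay below 0 and 10 above, with a median of -0.03. Among all measured genes 49.7% lay below 0 and 50.2% above. The values were small: none passed 0.5 and 31 lay within 0.25 (93.9%, against 76.6% of all measured genes). Ssr3, a subunit of the translocon-associated complex, was lowest at -0.26 (probe set SD 0.13), followed by the signal recognition particle receptor subunit Srprb at -0.25 (probe set SD 0.27), which stood at -0.50 with its brightest probe set alone.

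Of the sensors, Eif2ak3, which encodes PERK, read 231 in the oleanolic acid array and 244 in the control array (log2 ratio -0.08, probe set SD 0.25). Atf6 read 450.2 and 492.5 (log2 ratio -0.13, probe set SD 0.17) in the oleanolic acid and control arrays. Ern1, which encodes IRE1, was not measured, with signals no higher than 18.4 in the oleanolic acid array and 28.7 in the control array over 3 probe sets. None of the 11 measured sensor and kinase genes passed 0.5, against 5.87% of all measured genes, and the median was -0.05. Past 0.25, 3 were lower and 0 higher, against 12.9% and 10.6% of all measured genes. The lowest were other eIF2alpha kinases: Eif2ak2, the kinase PKR that senses double-stranded RNA, at -0.43 (probe set SD 0.25), and Eif2ak4, the amino acid sensor GCN2, at -0.42 (probe set SD 0.27). Eif2ak4 read 54.3 in the oleanolic acid array, below that array's median, and 72.5 in the control array, so the filter fixed its direction. It was at -0.29 with the floor at the array median and had no value where both signals had to reach the median.

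**Figure D3:**
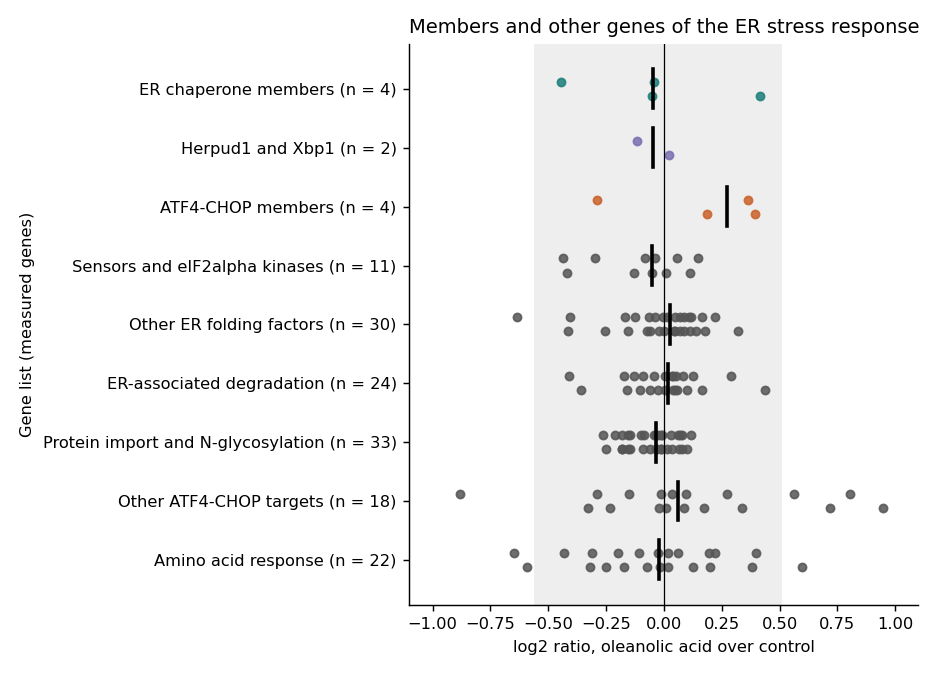
Log2 ratio of oleanolic acid over control for the members (coloured, top 3 rows) and the measured genes of 6 other ER stress lists (grey), with a bar at each median and shading over the central 95% of all measured genes, -0.56 to 0.51. Folding, degradation and import genes cluster around 0, while other ATF4-CHOP targets and amino acid response genes spread to both sides.

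Downstream of ATF4 and CHOP the spread was wider. Of 18 measured targets outside the members, 4 were higher and 1 lower past 0.5, against 2.63% and 3.24% of all measured genes, and the median was 0.06. Atf3, a stress-induced transcription factor gene, read 118.6 in the oleanolic acid array and 61.6 in the control array (log2 ratio 0.95, probe set SD 0.27). Bbc3, which encodes the cell death protein PUMA, read 118.9 and 68.0 in the oleanolic acid and control arrays (log2 ratio 0.81, probe set SD 0.27). The hepatokine gene Fgf21 read 459 in the oleanolic acid array and 279 in the control array (log2 ratio 0.72, probe set SD 0.17). Atf5, a relative of Atf4 that was named after its value was seen, was at 0.56 (probe set SD 0.13). The lower gene was Ddit4, an inhibitor of mTORC1, with 68.8 in the oleanolic acid array and 126.8 in the control array (log2 ratio -0.88, probe set SD 0.27), and with no filter on low signals 2 targets were lower past 0.5. Atf3, Bbc3 and Ddit4 fall in the dimmest signal band, where the probe set SD is largest. Of genes of similar signal, 2.30% had a value as far from 0 as Atf3, 3.81% as Bbc3 and 2.80% as Ddit4. For Fgf21 the share was 1.18% and for Atf5 2.35%. Targets in the feedback on eIF2alpha and in glutathione breakdown stayed near 0: the phosphatase subunit gene Ppp1r15a was at 0.17 and Chac1 at -0.02. Several of these targets also answer to regulators other than ATF4.

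The amino acid arm, to which Asns belongs, went both ways. Of 22 measured genes for amino acid synthesis, transport and tRNA charging, 1 was higher and 2 lower past 0.5, against 2.63% and 3.24% of all measured genes, with a median of -0.02. The lower genes encode enzymes of serine synthesis. Phgdh was at -0.65 and Psat1 at -0.59, each with a probe set SD of 0.27, on signals of 73.2 and 54.6 in the oleanolic acid array against 114.7 and 82.2 in the control array. With the brightest probe set alone Phgdh was at -0.23 and Psat1 at -0.36. The other Psat1 probe set read 45.1 in the oleanolic acid array, below that array's median, and 79.8 in the control array. The filter thus fixed the direction of that probe set, and Psat1 passed 0.5 only with it. The higher gene was the transporter gene Slc7a5, which read 85.1 in the oleanolic acid array and 56.2 in the control array (log2 ratio 0.60, probe set SD 0.27). Its control signal lay below the median of that array, so the filter fixed its direction. All 3 are dim: with the floor at the array median, 0 amino acid genes were higher and 1 lower past 0.5.

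Transcripts of other cells and other responses differed between the same arrays, in bulk tissue where fewer cells of a type and less RNA per cell cannot be told apart. For exocrine pancreas, an organ very rich in ER, 16 of 16 marker probe sets, counted with no filter, were lower in the oleanolic acid array. All were dim: of the 8 genes that counted as measured, 0 reached the median of the oleanolic acid array, so the filter fixed their direction. The summed signal of the 16 probe sets was 463 in the oleanolic acid array and 1684 in the control array, 2 of them were raised to the floor in the oleanolic acid array and none in the control array, and none was 0. For 23 probe sets of plasma and B cell markers the sums were 3416 and 4307, with 5 raised to it in the oleanolic acid array, 9 in the control array and none at 0. Most of these sums came from Sdc1, which hepatocytes also express, and over the 19 probe sets without it, a choice made after seeing the data, they were 511 in the oleanolic acid array and 1636 in the control array. The brightest Ighm probe set, for the immunoglobulin mu chain, read 113.7 and 839.8, and Jchain, for the joining chain, 43.8 and 133.9, in the oleanolic acid and control arrays. The dimmer Ighm probe sets went both ways, such as 59.6 against 351.6 and 40.1 against 27.5 in the same order. Of all 23 plasma and B cell probe sets, 12 were higher in the oleanolic acid array. Hepatocyte markers summed to 118518 over 16 probe sets in the oleanolic acid array and 115945 in the control array, and none was at the floor, so that markers such as Alb and Ttr were present as the tissue label says. Of the 8 measured hepatocyte genes, 7 lay within 0.25 (76.6% of all measured genes did). The other was Tat, with 2725 in the oleanolic acid array and 4440 in the control array (log2 ratio -0.70, probe set SD 0.13). Kupffer cell markers summed to 15871 and 16753 over 14 probe sets. Immediate early genes, which also respond to tissue handling, summed to 17957 in the oleanolic acid array and 13515 in the control array, and clock genes, which follow the hour of collection, to 6182 and 10339. Clock genes went both ways: of 13 measured, 5 were higher and 8 lower past 0.25, against 10.6% and 12.9% of all measured genes. Among the higher ones, Arntl, Cry1 and Nr1d1 read 25.3, 50.7 and 60.4 in the control array. These signals lay below that array's median, so the filter fixed the direction of these genes. The parts of these differences in the ER stress values were not tested. The 3′ over 5′ signal ratio of the Actb control probe sets, a sign of RNA integrity, was 1.79 in the oleanolic acid array and 1.71 in the control array.

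Direction held for most members when the values were processed in 9 other ways. For Dnajb9, Sdf2l1, Ddit3, Herpud1, Atf4 and Asns, 9 of 9 alternatives kept the sign. Dnajb9, Sdf2l1 and Ddit3 rest on a single probe set each, with both signals above the array medians. Changes of floor, filter and probe set choice therefore could not alter their values, and only normalization and centring could. For Hspa5, Hsp90b1 and Trib3, 8 of 8 did, since these genes have no value when probe sets that can share targets are left out. Xbp1 turned to -0.17 in that setting, which leaves only its dimmest probe set. Measured probe sets of the other members also had both signals above the array medians. For them too, changes of floor and the filter on both signals could not alter the values, and dropping the filter could alter only Atf4. The counts of kept signs therefore include settings whose outcome was fixed.

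**Figure D4:**
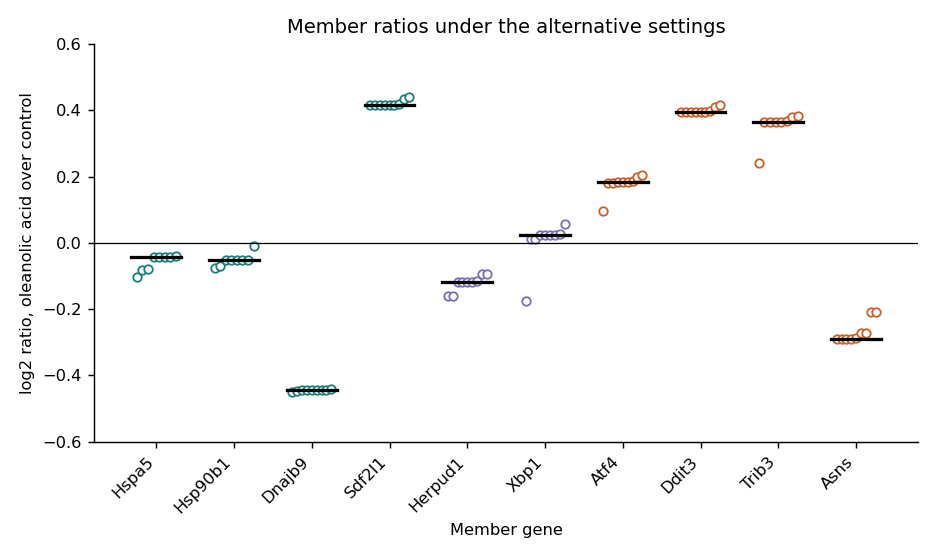
Log2 ratio of oleanolic acid over control for each member as reported (black bars) and under each alternative setting with a value (open circles, 8 or 9 per gene). Sdf2l1, Ddit3, Trib3 and Atf4 stay above 0 and Dnajb9, Asns and Herpud1 below 0 throughout, and Xbp1 has 1 value on the other side of 0.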

How the data were processed

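Liver RNA was hybridized to Affymetrix 3′ expression arrays, 1 pooled array per diet. The authors deposited linear signal intensities per probe set. The submitters' processing notes name MAS5 and no version. Trimmed of 2% at each end, they averaged 300.1 on both arrays and were used as they stand. Detection calls were not used here. Of 22690 probe sets, the platform annotation gave 20380 one symbol, 691 several and 1555 none. A further 64 were Affymetrix controls, and 20351 matched RefSeq (GRCm38.p6) by gene identifier.

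Signals below the 25th percentile of an array (10.1 in the oleanolic acid and 10.7 in the control array) were raised to that floor before log2 was taken. Probe sets counted as measured where either signal reached its array's median (59.3 and 61.5), and those of a gene were averaged on the log2 scale. Probe set SDs were pooled in 4 signal bands, from 2427 genes with 2 or more measured probe sets. Having 1 array per diet limits the precision of every value. The members, the 6 other ER stress lists and the 6 marker lists were chosen with earlier results of these data known. Other genes were picked by rule, starting with a fixed set of sensors and targets. Each list added up to 4 genes past 0.5, or the 2 with the largest values where none passed. Some marker genes that the rule picked are not named in the text, and some genes, such as Atf5, are named outside the rule. The calculation was checked on simulated data and used Python 3.11.15, numpy 2.4.6, pandas 2.3.3 and statsmodels 0.14.6. Alternatives changed the floor, filter, choice of probe sets, normalization and centring.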

Additional observations from a re-analysis of the deposited data

How the results depend on the processing

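No paired analysis was possible because each diet has 1 pooled array. Over 9 alternatives, the median of the chaperone members ran from -0.08 to -0.01, that of the ATF4-CHOP members from 0.18 to 0.29, and their difference from 0.19 to 0.37. No member passed 0.5 in any of these settings. Without probe sets ending in _x_at, _s_at or _a_at, Xbp1 was at -0.17, and the members lower past 0.25 numbered 1, and those higher 2, as with the brightest probe set alone, where Asns was at -0.21. In both of these settings 1 import gene was lower past 0.5, against none, and 0 amino acid genes were, against 2. With the floor at the array median, and with both signals required to reach it, 0 amino acid genes were higher and 1 lower past 0.5. With no filter on low signals, 0 folding genes and 2 ATF4-CHOP targets were lower past 0.5. The naming rule picked 45 genes outside the members, some of them marker genes that the text does not name. Of their 388 values, 372 moved by less than 1 probe set SD, 16 by more, and 4 took the other sign (Sel1l, Dnajc3, Hyou1 and Chac1, each in 1 setting and reported at 0.18 or less in size). For dim genes such as Ddit4 and Psat1, the table gives no detection call, so how far their signals lie above background is unknown.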

Other observations

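Genes holding a motif were also counted over the whole array. Of 162 measured genes with a CARE match, 33.3% lay past 0.25 in either direction, against 23.4% of all measured genes, with a median of -0.0089 and values from -2.04 to 1.21. The lowest value is that of the pancreas gene Prss2, whose direction the filter fixed. Shares past 0.25 rise as signal falls, from 12.3% in the brightest band to 17.7% and 24.2% in the next ones. The CARE genes were not set against genes of similar signal. Of 201 measured genes with the UPRE core, 19.9% lay past 0.25, with a median of -0.03. Among the ER stress genes outside the members, 9 held the UPRE core. Of these, 6 lay below 0 and 4 below -0.25, against 49.7% and 12.9% of all measured genes, with Fkbp11 lowest at -0.64. These are descriptions of 2 arrays, and genes sharing a motif are not independent.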
